A study of Danio rerio with 54 samples.

Results

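The stearoyl-CoA desaturases *scd* and *scdb*, the polyunsaturated fatty acid desaturase *fads2* and the fatty acid elongases *elovl2*, *elovl5* and *elovl6* were followed through cold exposure and rewarming of zebrafish larvae. Every row of the expression table with 1 of these 6 symbols was taken, which gave 7 of 30097 rows because *elovl6* is carried by 2 gene IDs. The Ensembl gene IDs are ENSDARG00000033662 for *scd*, ENSDARG00000030265 for *scdb*, ENSDARG00000019532 for *fads2*, ENSDARG00000045414 for *elovl2*, ENSDARG00000004979 for *elovl5*, and ENSDARG00000004402 (the main row) and ENSDARG00000114205 for *elovl6*. Late in the cold *scd* rose. After 24 h of cold *elovl6* was lower than at the start, by less when libraries were rescaled. *fads2* rose with age in untreated larvae. After 12 h of cold and 24 h of rewarming it lay below untreated larvae of the same age. Levels of *elovl2* after 6 and 12 h of cold lay below those of untreated larvae of the same age. Against larvae at the start of the cold these *elovl2* levels were not called. On the deposited scale *scdb* changed by less than 1.5-fold in all 26 comparisons.

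Membrane lipids stiffen when a cold-blooded animal cools, and fish are known to raise the share of unsaturated acyl chains in their membranes in response. Stearoyl-CoA desaturases put the first double bond into saturated acyl chains and so make monounsaturated fatty acids. Zebrafish Fads2 puts further double bonds into polyunsaturated chains, while Elovl5 and Elovl2 lengthen these chains towards the long forms that are rich in brain and retina. Elovl6 lengthens saturated and monounsaturated chains and so feeds and follows the stearoyl-CoA desaturases.

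Whole larvae of the AB strain, reared in E3 medium at 28 °C, were sampled in 18 groups of 3. Untreated larvae (ctrl) were collected at 96, 97, 98, 102, 108 and 132 hours post fertilization (hpf). From 96 hpf on, larvae were held at 10 °C for 1, 2, 6, 12 or 24 h (lc), or for 12 h and then returned to 28 °C for 1, 2, 6, 12 or 24 h (re). Larvae that survived 24 h at 10 °C and a further 24 h at 28 °C were collected apart as abnormal (er_ab) or normal (er_nor). Dead larvae were removed before collection, so the late cold groups and both survivor groups hold only the larvae that could still be collected. The dish warmed gradually after its return to 28 °C, so the earliest rewarmed larvae were not at that temperature for the whole time. No untreated group had the age of lc_24 h or of the survivors. In lc_24 h against ctrl_96 hpf, cold and age therefore cannot be told apart. The re_12 h larvae had the age of lc_24 h and were also compared with them. They had only 12 h of cold, so in that comparison the length of cold and rewarming cannot be told apart. How many larvae made up a sample, and whether the 3 samples of a group came from separate clutches, is not given in the sources used here, so p-values measure only the spread between these samples.

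Levels are relative transcript abundances (TPM), a unit that corrects for transcript length, so that levels of different genes can be compared. Columns summed to between 998493 and 999530 TPM, and without counts the precision of a value is known only from the spread between samples. Fold changes are differences of log2(TPM + 1) from 1 limma fit to all 54 samples, given with their standard error (SE), and they understate the change of genes near 1 TPM. The SE of a gene comes from its spread within all 18 groups and a trend over all genes, not only from the groups compared. A gene was called where its fold was at least 1.5 on that scale and its Benjamini-Hochberg adjusted p was at most 0.05 over 25387 expressed genes. All 7 rows passed the filter for expressed genes. Comparisons with ctrl_96 hpf share its 3 samples, as do those with lc_12 h and those with lc_24 h. For each of the 9 cell types with fixed markers (listed with the processing), no marker in the table was at 0 in every sample. In bulk RNA of whole larvae, fewer cells of a type and less RNA per cell cannot be told apart.

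**Figure D1:**
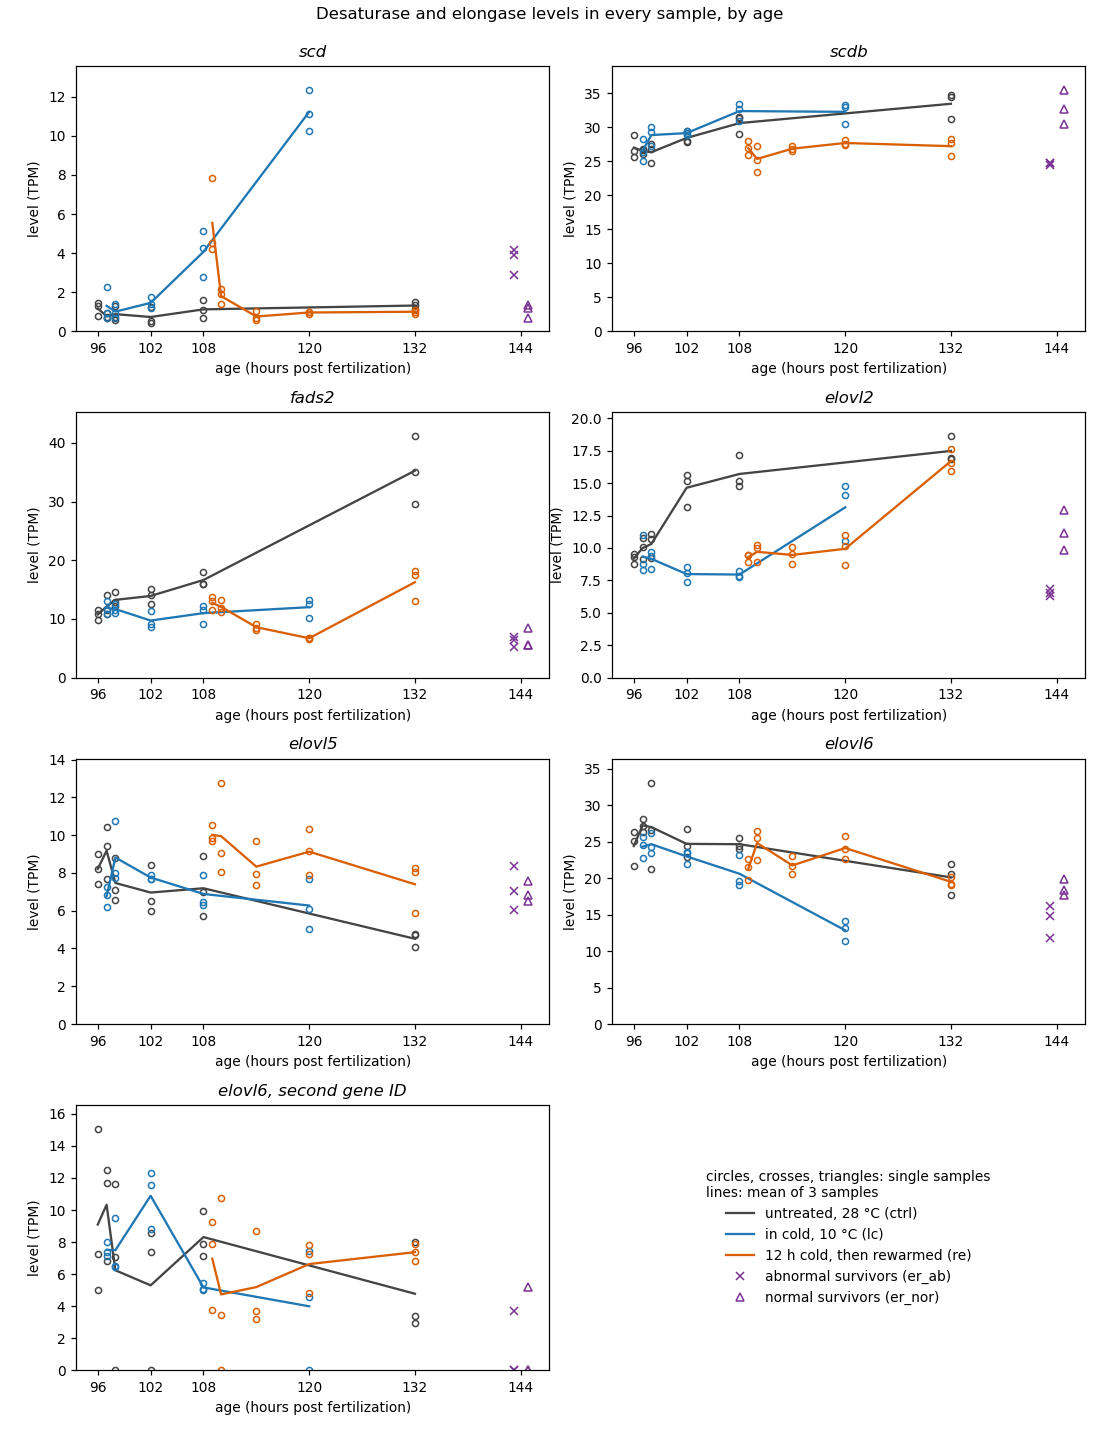
Level in TPM (vertical axis, from 0) of each of the 7 rows in every sample against age in hours post fertilization (horizontal axis); circles are single samples, lines join the means of 3, and crosses and triangles are abnormal and normal survivors, set slightly apart at 144 hpf. The panel of *scd* shows the lc_24 h samples, with a mean of 11.2 TPM, above all others, and the panels of *fads2* and *elovl2* show the cold-exposed larvae below untreated larvae of the same age at 102 and 108 hpf.

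At least 1 of the 7 rows was called in 18 of the 26 comparisons, and 35 of the 182 values of a row in a comparison were calls. None was called in untreated larvae at 97 or 98 hpf, in the first 6 h of cold against ctrl_96 hpf, after 1 and 2 h of cold against untreated larvae of the same age, or at re_1 h against lc_12 h. *scd* gave 12 of the calls, 5 higher and 7 lower, *elovl2* gave 5 higher and 4 lower, and *fads2* gave 2 higher and 6 lower. *elovl5* and the main *elovl6* row were called in 2 and 3 comparisons, the second *elovl6* row in 1, and *scdb* in 0 of 26. By limma *scdb* reached an unadjusted p under 0.05 in 15 of 26, and of the 56 values in the 8 comparisons with no member called, 6 did. The share of all genes under that p was not taken and comparisons share samples, so nothing is read from these 2 counts.

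The share of all tested genes that was called in the same comparison gives these counts their scale. In lc_24 h against ctrl_96 hpf 1 of 7 rows was called higher and 1 lower, beside 9.3% and 24.3% of all genes tested. In lc_12 h against ctrl_108 hpf 1 was called higher and 1 lower, beside 5.77% and 14.1%. In untreated larvae at 132 hpf 2 were called higher and 1 lower against 96 hpf, beside 4.13% and 8.28%. In re_12 h against lc_24 h 1 was called higher and 2 lower, beside 28.2% and 7.86%, and in re_24 h against ctrl_132 hpf 1 higher and 1 lower, beside 4.75% and 1.34%. In er_ab against er_nor 1 was called higher and 1 lower, beside 5.58% and 4.74%. No count is read as a result about the 7 rows as a group.

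In the comparisons without a called member, genes called in either direction made up 0.24% (ctrl_97 hpf) and 0.205% (ctrl_98 hpf) of all genes, and 0.284%, 0.748% and 4.83% after 1, 2 and 6 h of cold against ctrl_96 hpf. Against untreated larvae of the same age they made up 0.571% and 1.14% after 1 and 2 h of cold, and at re_1 h against lc_12 h 16.8%. In ctrl_102 hpf and ctrl_108 hpf against ctrl_96 hpf 1 and 2 members were called, beside 1.37% and 2.5% of all genes. In lc_12 h against ctrl_96 hpf and lc_6 h against ctrl_102 hpf it was 1 each, beside 15.1% and 7%, and in lc_24 h against lc_12 h 3, beside 9.18%. At re_2 h, re_6 h, re_12 h and re_24 h against lc_12 h it was 1, 1, 2 and 2, beside 20.6%, 21.9%, 21.3% and 20.2%. In er_nor and er_ab against lc_24 h it was 2 and 3, beside 34.5% and 38%, and in er_nor against re_24 h 2, beside 5.54%.

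These shares depended on the scaling. The median log2 fold change of all genes was -0.23 in lc_24 h against ctrl_96 hpf, -0.16 in lc_12 h against ctrl_108 hpf and 0.30 in re_12 h against lc_24 h. With median-of-ratios scaling 15.5% of genes were called higher and 14.1% lower in the first, 8.71% and 8.26% in the second and 15.2% and 14.6% in the third. For ctrl_132 hpf against ctrl_96 hpf the shares became 5.52% and 5.74%, and for re_24 h against ctrl_132 hpf with quantile normalization 3.65% and 1.99%. The value of *scd* in lc_24 h was 2.74 and that of *elovl2* in lc_12 h against ctrl_108 hpf was -0.72 with median-of-ratios scaling, both still called.

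*scd* was close to 1 TPM in untreated larvae and rose after 12 h of cold. In ctrl_96 hpf the 3 samples held 0.781, 1.27 and 1.47 TPM. In lc_12 h they held 2.80, 5.13 and 4.28 TPM. In lc_24 h they held 10.2, 12.3 and 11.1 TPM. The 3 groups did not overlap, and every lc_24 h sample exceeded every other sample of the series. Against ctrl_96 hpf the log2 fold change was 1.21 (SE 0.21, adjusted p = 9.28e-06) at 12 h and 2.50 (SE 0.21, adjusted p = 2.44e-13) at 24 h. As a ratio of mean TPM, with no value added, the level at 24 h was 9.56 times that of ctrl_96 hpf. Between 12 and 24 h of cold it rose further, by 1.29 (SE 0.21, adjusted p = 4.88e-06).

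Untreated larvae of the age of lc_12 h held 1.08, 0.688 and 1.61 TPM of *scd*, all below the lc_12 h samples. Against these ctrl_108 hpf samples the log2 fold change was 1.25 (SE 0.21, adjusted p = 4.12e-06). After 6 h of cold the samples held 1.18, 1.41 and 1.78 TPM against 0.433, 1.24 and 0.535 TPM in ctrl_102 hpf. These ranges overlapped, and the change of 0.52 (SE 0.21, adjusted p = 0.0603) was not called. It became a call with a smaller value added before the logarithm, 0.71 with 0.5 and 1.00 with 0.1, and also without ctrl_102 hpf replicate 2, at 0.72. Summed TPM of the adipocyte marker list, whose cells are known for high stearoyl-CoA desaturase levels in mammals, ran from 48.0 to 52.4 in ctrl_96 hpf, from 63.9 to 74.4 in lc_12 h and from 87.8 to 97.4 in lc_24 h. In ctrl_132 hpf, with a mean of 1.32 TPM of *scd*, the sum ran from 61.1 to 71.0 and overlapped with lc_12 h. In ctrl_108 hpf the sum ran from 55.6 to 60.6. In lc_24 h against ctrl_96 hpf, 2 of the 5 expressed genes of the list were called higher and 0 lower, beside 9.3% and 24.3% of all genes. In lc_12 h against ctrl_108 hpf 1 was called higher and 1 lower, beside 5.77% and 14.1%. Whether larvae of these ages held adipocytes is not known from these data, and the part of such cells in the *scd* result was not tested.

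Within 6 h of the return to 28 °C *scd* was back in the range of untreated larvae. One hour after the return the samples held 4.54, 4.23 and 7.86 TPM, which overlapped with lc_12 h (log2 fold change 0.35, SE 0.21, adjusted p = 0.177). At re_2 h they held 1.89, 1.38 and 2.14 TPM, and at re_6 h 1.02, 0.570 and 0.696 TPM. Both groups lay wholly below lc_12 h. *scd* had fallen by 0.84 (SE 0.21, adjusted p = 0.000982) at re_2 h and by 1.51 (SE 0.21, adjusted p = 1.14e-07) at re_6 h, and the log2 fold changes at re_12 h and re_24 h were -1.34 and -1.31. At re_12 h, the age of lc_24 h, the samples held 0.988, 0.903 and 1.00 TPM. Against lc_24 h the log2 fold change was -2.63, a call. At re_24 h the level of 1.00 ± 0.108 TPM (SD, n = 3) did not differ by the test from that of ctrl_132 hpf, 1.32 ± 0.186 TPM, with a 95% interval of the log2 difference from -0.63 to 0.22. The samples did not overlap, with 0.898 to 1.11 TPM at re_24 h and 1.12 to 1.49 TPM in ctrl_132 hpf.

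Abnormal survivors held more *scd* than normal survivors. The er_ab samples held 3.88, 4.17 and 2.88 TPM. The er_nor samples held 0.692, 1.36 and 1.19 TPM. The 2 groups did not overlap, and the log2 fold change was 1.16 (SE 0.21, adjusted p = 2.34e-05). Both lay below lc_24 h, er_ab by a log2 fold change of -1.40 and er_nor by one of -2.57 (SE 0.21 each). Abnormal survivors also differed in the marker lists. The counts that follow stand beside 5.58% of all genes called higher and 4.74% called lower in er_ab against er_nor. Summed TPM of 7 photoreceptor markers ran from 1171 to 1224 in er_ab against 2665 to 2995 in er_nor, and 7 of 7 were called lower. Summed TPM of 8 epidermis markers ran from 6119 to 6498 against 9860 to 10240, with 6 called lower, and that of 9 glia and myelin markers from 580.4 to 671.9 against 1125 to 1151, with 6 called lower. The adipocyte list ran from 78.3 to 86.7 in er_ab and from 68.1 to 80.1 in er_nor, so the ranges overlapped. Of its 5 expressed genes 1 was called higher and 1 lower. Of 10 hepatocyte markers 2 were called higher and 3 lower, of 8 neuron markers 0 and 1, and of 8 skeletal muscle markers 0 and 0. The part of these tissues in the *scd* difference was not tested.

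*scdb*, the other stearoyl-CoA desaturase gene, was the more abundant of the pair in every group, with group means from 24.6 TPM in er_ab to 33.4 TPM in ctrl_132 hpf. In ctrl_96 hpf the samples held 26.5, 28.8 and 25.6 TPM, and in lc_24 h 32.9, 33.3 and 30.5 TPM. The lc_24 h samples lay above those of ctrl_96 hpf, but by a log2 fold change of only 0.25 (SE 0.06, adjusted p = 0.000153), under the fold asked for, or of 0.52 with median-of-ratios scaling, also not called. A shift of 0.30 (SE 0.06) was also seen in untreated larvae between 96 and 132 hpf, and lc_12 h against ctrl_108 hpf gave 0.08 (SE 0.06, adjusted p = 0.240) with overlapping ranges. The lowest group mean stood in er_ab, with samples of 24.7, 24.7 and 24.4 TPM against 30.5, 35.4 and 32.6 TPM in er_nor. The groups did not overlap and the log2 fold change was -0.40 (SE 0.06, adjusted p = 1.61e-07), again under the fold asked for. The lowest single sample, 23.5 TPM, was 1 of re_2 h. In er_ab against lc_24 h the value of -0.38 became a call, at -0.62, when libraries were rescaled by the median of ratios.

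The share of *scd* in the summed TPM of *scd* and *scdb* therefore moved with *scd*. It was 2.86%, 4.23% and 5.41% in ctrl_96 hpf, 8.30%, 13.3% and 11.6% in lc_12 h and 23.7%, 27.0% and 26.7% in lc_24 h. In er_ab it was 13.6%, 14.5% and 10.5%, and in er_nor 2.22%, 3.71% and 3.51%. The groups named did not overlap, except that the er_ab and lc_12 h samples did, as did er_nor and ctrl_96 hpf. The summed level of both genes was 28.2 ± 1.67 TPM in ctrl_96 hpf and 43.5 ± 2.05 TPM in lc_24 h (SD, n = 3), without overlap. It was 28.2 ± 0.807 TPM in er_ab and 33.9 ± 2.80 TPM in er_nor, so the survivors with more *scd* held less of the 2 genes together. The log2 ratio of *scdb* over *scd*, with 1 TPM added to each, was 3.70 ± 0.258 in ctrl_96 hpf and 1.45 ± 0.13 in lc_24 h. Its exact permutation p was 0.10, the smallest that 3 samples against 3 allow, and 0.20 after Benjamini-Hochberg adjustment over 52 such tests, so the call cannot be made at this sample size.

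**Figure D2:**
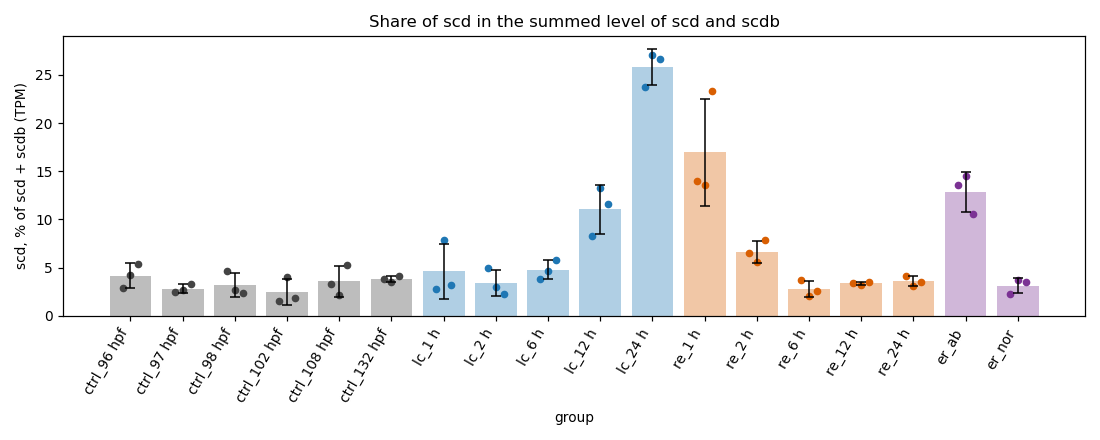
Share of *scd* in the summed TPM of *scd* and *scdb* (vertical axis, percent, from 0) in each of the 18 groups (horizontal axis); bars are means of 3 samples, lines the SD and points the single samples. The mean share was 4.17% in ctrl_96 hpf, 25.8% in lc_24 h, 12.9% in er_ab and 3.14% in er_nor.

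*fads2* rose with age in untreated larvae and stayed low in the cold. Untreated samples held 11.5, 9.85 and 10.9 TPM at 96 hpf, 15.96, 17.96 and 16.00 TPM at 108 hpf and 41.11, 29.63 and 35.03 TPM at 132 hpf. The 3 ages did not overlap. At 132 hpf the log2 fold change against 96 hpf was 1.61 (SE 0.13, adjusted p = 2.53e-13). At 108 hpf it was 0.59 (SE 0.13, adjusted p = 0.00187), a call that was lost without ctrl_96 hpf replicate 2, at 0.53, without ctrl_108 hpf replicate 2, at 0.53, and under both other scalings of the libraries, at 0.55 and 0.57.

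In the cold the group means of *fads2* stayed between 9.73 and 12.0 TPM. The lc_12 h samples held 9.16, 12.3 and 11.5 TPM, all below those of ctrl_108 hpf. A log2 fold change of -0.56 (SE 0.13, adjusted p = 0.000440) against ctrl_108 hpf missed the fold asked for by a small margin. It passed in 4 of the fits with 1 sample left out: -0.59 without ctrl_108 hpf replicate 1 or 3, -0.64 without lc_12 h replicate 2 and -0.60 without lc_12 h replicate 3. With a pseudocount of 0.1 it also passed, at -0.60, while it shrank to -0.38 with median-of-ratios scaling and to -0.44 with quantile normalization. At 6 h of cold the samples, 11.4, 9.13 and 8.68 TPM, lay below the 12.5, 15.1 and 14.1 TPM of ctrl_102 hpf. That log2 fold change, -0.48 (SE 0.13, adjusted p = 0.00512), was not called, except without lc_6 h replicate 1, at -0.59, and was -0.42 and -0.43 with the other 2 scalings. Against ctrl_96 hpf the value at 24 h of cold was 0.14 (SE 0.13, adjusted p = 0.357), with a 95% interval from -0.13 to 0.41. It grew to 0.40 with median-of-ratios scaling and to 0.33 with quantile normalization, not called in either.

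Against lc_12 h the log2 fold change of *fads2* was 0.20 at re_1 h, 0.13 at re_2 h and -0.31 at re_6 h, not called in each. Among the rewarmed groups its mean was lowest at re_12 h, with 6.72 TPM, and highest at re_24 h, with 16.3 TPM. At re_12 h the samples held 6.80, 6.56 and 6.80 TPM, below every sample of lc_12 h and of lc_24 h, which had the same age. Against lc_24 h the log2 fold change was -0.75 (SE 0.13, adjusted p = 5.01e-06) and against lc_12 h it was -0.63 (SE 0.13, adjusted p = 0.000110), where the call was lost without lc_12 h replicate 2, at -0.55. At re_24 h the samples held 17.5, 18.1 and 13.1 TPM. They lay above lc_12 h, by a log2 fold change of 0.52 (SE 0.13) that was not called, except without lc_12 h replicate 2, at 0.60, or without re_24 h replicate 3, at 0.66. They lay below ctrl_132 hpf, of the same age, with a log2 fold change of -1.07 (SE 0.13, adjusted p = 2.26e-08).

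Both groups of survivors held little *fads2*, 6.481, 5.276 and 7.0025 TPM in er_ab and 5.49, 5.60 and 8.39 TPM in er_nor. These ranges overlapped, and the difference of -0.03 (SE 0.13) had a 95% interval from -0.30 to 0.23. Both groups lay below lc_24 h, with log2 fold changes of -0.84 and -0.81 (SE 0.13 each). er_nor, with 24 h of cold, also lay below re_24 h, with 12 h of cold and the same time of rewarming (log2 fold change -1.21, SE 0.13, adjusted p = 3.25e-09). These 2 groups also differ in age, so the length of cold and age cannot be told apart.

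*elovl2*, an elongase of long polyunsaturated chains, rose early in untreated larvae and did not reach these levels in the first 12 h of cold. Untreated samples held 8.76, 9.30 and 9.50 TPM at 96 hpf, 15.2, 13.1 and 15.6 TPM at 102 hpf, 15.1, 17.2 and 14.8 TPM at 108 hpf and 18.6, 16.9 and 16.9 TPM at 132 hpf. Every sample from 102 hpf on lay above every sample at 96 hpf. The log2 fold changes against 96 hpf were 0.62, 0.71 and 0.86 (SE 0.10 each), all called, but that at 102 hpf fell under the fold asked for without ctrl_102 hpf replicate 3, at 0.57.

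Under cold the *elovl2* samples held 8.08, 7.38 and 8.51 TPM at 6 h and 7.75, 7.88 and 8.23 TPM at 12 h. All lay below untreated larvae of the same age, with a log2 fold change of -0.80 (SE 0.10, adjusted p = 3.55e-08) at 6 h and -0.90 (SE 0.10, adjusted p = 5.89e-10) at 12 h. Against ctrl_96 hpf the values were only -0.18 at 6 h and -0.19 at 12 h, not called. With median-of-ratios scaling they were -0.10 and -0.04. At 24 h of cold the samples held 14.8, 14.1 and 10.6 TPM, above lc_12 h by 0.65 (SE 0.10, adjusted p = 1.73e-06), or by 0.56 and no longer called without lc_24 h replicate 1. Against ctrl_96 hpf the same samples were higher by 0.46 (SE 0.10, adjusted p = 9.76e-05), which was under the fold asked for. That value became a call at 0.72 and 0.65 with the 2 other scalings, and at 0.60 without lc_24 h replicate 3.

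During rewarming *elovl2* stayed between group means of 9.30 and 9.94 TPM up to 12 h. At re_24 h the samples held 16.0, 17.6 and 16.5 TPM, above lc_12 h by 0.98 (SE 0.10, adjusted p = 5.80e-11). They overlapped with ctrl_132 hpf, and the log2 difference of -0.06 had a 95% interval from -0.26 to 0.14. Among the survivors, er_ab held 6.86, 6.54 and 6.30 TPM and er_nor 9.85, 11.2 and 12.9 TPM. The groups did not overlap, and the log2 fold change of er_ab against er_nor was -0.70 (SE 0.10, adjusted p = 3.02e-07). er_ab held the lowest *elovl2* of all 18 groups and lay below lc_24 h by a log2 fold change of -0.89.

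Digestive tract and hepatocyte markers moved with *elovl2* in some of these comparisons and not in others. Summed TPM of 8 exocrine pancreas markers ran from 4637 to 5787 in ctrl_96 hpf, from 13030 to 14410 in ctrl_108 hpf, from 3688 to 5835 in lc_12 h and from 7518 to 8418 in lc_24 h. In lc_12 h against ctrl_108 hpf 8 of 8 were called lower, beside 14.1% of all genes, or 8.26% with median-of-ratios scaling. In lc_24 h against lc_12 h 7 were called higher, beside 9.18% of all genes called in either direction. In er_ab they ran from 14390 to 15350 and in er_nor from 15980 to 16650, with 0 of 8 called, beside 5.58% of all genes higher and 4.74% lower. The same shares of all genes stand beside the counts of the other lists below. Summed TPM of 10 markers of lipid export from yolk syncytial layer and enterocytes ran from 6974 to 8143 in lc_12 h against 8520 to 9046 in ctrl_108 hpf, with 3 called lower, and from 6596 to 6806 in er_ab against 7582 to 8025 in er_nor, with 4 called lower. In lc_24 h against lc_12 h, where *elovl2* rose, 2 of the 10 were called higher and 4 lower, and their sum had means of 7131 and 7484 TPM with overlapping ranges. In untreated larvae the mean sum was 8148 TPM at 96 hpf and 6862 TPM at 132 hpf, while *elovl2* rose. Hepatocyte sums ran from 7248 to 7872 in lc_12 h against 7974 to 8214 in ctrl_108 hpf. There 0 of 10 markers were called higher and 4 lower. In er_ab they ran from 6999 to 7322 against 8676 to 8834 in er_nor, with 2 called higher and 3 lower. In lc_24 h they ran from 4771 to 6614, below lc_12 h, with 2 called higher and 0 lower. The part of these cells in the *elovl2* result was not tested.

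*elovl5*, which lengthens polyunsaturated chains of medium length, fell with age in untreated larvae. The samples held 8.21, 7.40 and 9.02 TPM at 96 hpf and 4.72, 4.75 and 4.07 TPM at 132 hpf, without overlap and with a log2 fold change of -0.74 (SE 0.15, adjusted p = 0.000143). The highest group means stood in the first hours of rewarming, 10.0 TPM at re_1 h and 9.95 TPM at re_2 h. Against lc_12 h they were higher by 0.49 and 0.45 (SE 0.15 each), under the fold asked for. With median-of-ratios scaling these 2 values were 0.40 and 0.34, and with quantile normalization 0.35 and 0.32. In lc_24 h the value against ctrl_96 hpf was -0.35 (SE 0.15, adjusted p = 0.0439), also under that fold. It shrank to -0.11 with median-of-ratios scaling and to -0.12 with quantile normalization.

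At re_24 h the *elovl5* samples held 8.25, 5.89 and 8.07 TPM, above each sample of ctrl_132 hpf. The log2 fold change of 0.60 (SE 0.15, adjusted p = 0.00291) was called by a small margin. The call was lost with both other scalings (0.56 each), and without ctrl_132 hpf replicate 3, re_24 h replicate 1 or re_24 h replicate 3 (0.52 to 0.54). The survivors did not differ by the test, with a log2 difference of 0.02 (SE 0.15). With *elovl2* rising and *elovl5* falling in untreated larvae, the log2 ratio of *elovl2* over *elovl5* was 0.15 ± 0.127 at 96 hpf and 1.75 ± 0.098 at 132 hpf (SD, n = 3). In lc_24 h it was 0.96 ± 0.116, in er_ab -0.10 ± 0.149 and in er_nor 0.62 ± 0.276. The er_ab and er_nor ratios did not overlap. Any such separation of 3 samples from 3 gives an exact permutation p of 0.10. After Benjamini-Hochberg adjustment over 52 such tests it was 0.20, so the test adds nothing to the separation itself.

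*elovl6*, the elongase of saturated and monounsaturated chains, went the opposite way to *scd* at 24 h of cold. Its main row held 21.7, 26.4 and 25.1 TPM in ctrl_96 hpf, 23.2, 19.1 and 19.6 TPM in lc_12 h and 13.1, 14.1 and 11.3 TPM in lc_24 h. The lc_24 h samples lay below all samples of the other 2 groups. Marker sums of nervous tissue were also lower in lc_24 h than in ctrl_96 hpf, without overlap. They ran from 1351 to 1395 against 1690 to 1733 TPM for 8 neuron markers, from 1458 to 1502 against 1890 to 1919 TPM for 9 glia and myelin markers and from 3891 to 4028 against 4960 to 5135 TPM for 7 photoreceptor markers. In each of these lists 1 marker was called lower and 0 higher, beside 24.3% and 9.3% of all genes. Hepatocyte sums were lower too, 4771 to 6614 against 8052 to 8442 TPM, with 2 markers called higher and 2 lower. Exocrine pancreas, epidermis and adipocyte sums were higher without overlap, with 6 of 8, 0 of 8 and 2 of 5 markers called higher and 0 lower in each. Epidermis sums were close, 12240 to 13250 against 10580 to 12200 TPM. At re_2 h, with a mean *elovl6* of 24.8 TPM, mean neuron, glia and photoreceptor sums were 1370, 1399 and 3737 TPM. In lc_24 h they were 1371, 1481 and 3977 TPM. The part of these cells in the *elovl6* result was not tested. Relative to ctrl_96 hpf the log2 fold change of *elovl6* in lc_24 h was -0.88 (SE 0.10, adjusted p = 2.13e-09), or -0.61 and still called when libraries were rescaled by the median of ratios. Between 12 and 24 h of cold it was -0.64 (SE 0.10, adjusted p = 5.29e-06). That call was lost with both other scalings, at -0.53 and -0.54, and without lc_12 h replicate 1 or lc_24 h replicate 3, at -0.56 each.

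At re_12 h, the age of lc_24 h, *elovl6* stood at 22.6, 24.0 and 25.8 TPM, all above lc_24 h. The log2 fold change was 0.86 (SE 0.10, adjusted p = 2.79e-09), and 0.55 and not called when rescaled by the median of ratios. The re_12 h larvae had only 12 h of cold, so this value is no measure of recovery from 24 h of cold. From re_1 h to re_24 h the log2 fold changes against lc_12 h were 0.05, 0.26, 0.08, 0.22 and -0.07, none called. Against lc_24 h *elovl6* was at 0.51 in er_nor and 0.13 in er_ab, neither called. With median-of-ratios scaling these were 0.25 and -0.10. The er_ab samples held 14.8, 11.8 and 16.2 TPM and the er_nor samples 18.4, 19.9 and 17.7 TPM. The groups did not overlap, but the log2 fold change of -0.37 (SE 0.10, adjusted p = 0.00442) was under the fold asked for.

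The second gene ID with the symbol *elovl6* was listed at 0 in 8 of 54 samples and reached 15.1 TPM in 1 sample of ctrl_96 hpf. Reads may have been split between these 2 rows, so the share of each is uncertain. It was called only in er_nor against re_24 h (log2 fold change -2.19, SE 0.81, adjusted p = 0.0473), and not when either er_nor sample listed at 0, or any re_24 h sample, was left out (-1.75 to -2.23). The summed level of both rows was 33.5 ± 2.88 TPM in ctrl_96 hpf and 16.9 ± 4.87 TPM in lc_24 h (SD, n = 3). The log2 fold change of the sum was -0.99 (SE 0.12, adjusted p = 4.76e-09), and for er_ab against er_nor it was -0.37 (SE 0.12, adjusted p = 0.0161).

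**Figure D3:**
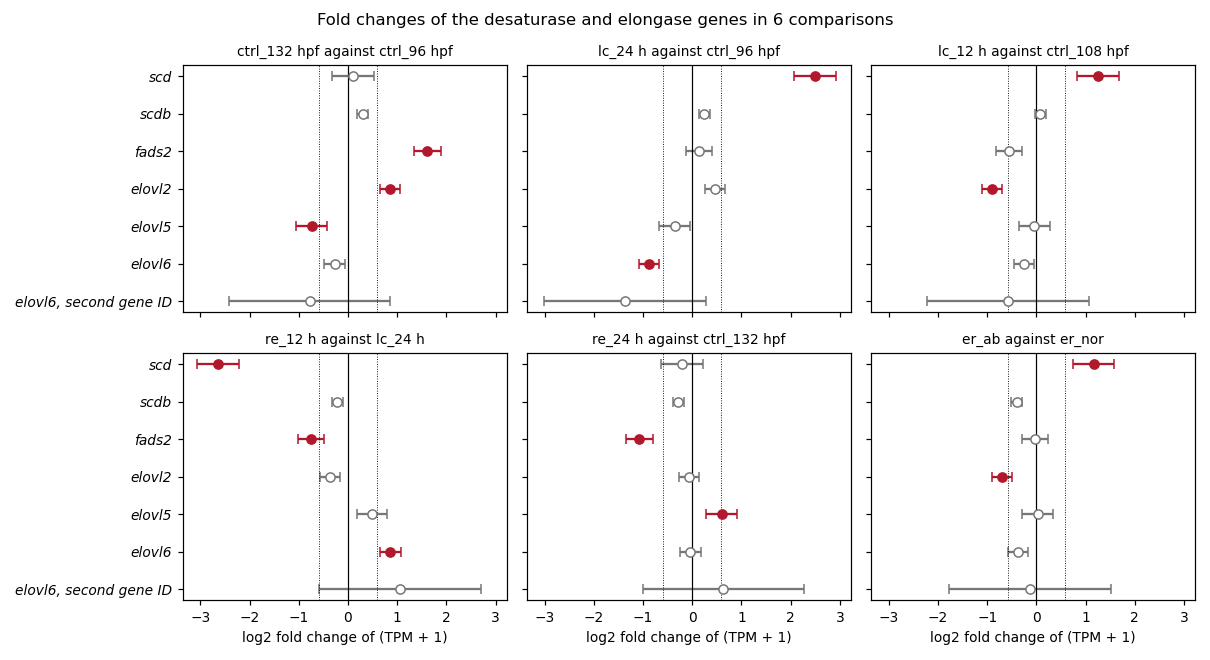
Log2 fold change of TPM + 1 (horizontal axis, with 95% intervals from the limma fit) of the 7 rows (vertical axis) in 6 comparisons; filled red points were called, open grey points were not, and dotted lines mark a fold of 1.5. *scd* lies at 2.50 in lc_24 h against ctrl_96 hpf, at 1.25 in lc_12 h against ctrl_108 hpf and at 1.16 in er_ab against er_nor, while *elovl2* lies at -0.90 and -0.70 in the latter 2.

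Over the 18 group means the members did not follow 1 pattern. As a description, with groups that share control age and treatment and with no test, the highest correlation of log2(TPM + 1) was that of *fads2* with *elovl2* (Pearson r 0.71, Spearman rho 0.69). The lowest was that of *scd* with the main *elovl6* row (r -0.74, rho -0.54). *scd* and *scdb* had an r of 0.21, and *scdb* and *elovl5* one of -0.63. In the order of the 18 group means, only lc_24 h and re_1 h, and er_ab and re_2 h, were neighbours of *scd* whose samples did not overlap. For *fads2* these were ctrl_132 hpf and ctrl_108 hpf, and re_6 h and re_12 h. For *elovl2* this held only for lc_12 h and er_ab.

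Among 11967 other genes, those with group means most like *scd* over the 18 groups were *rybpb* (r 0.976), *rnf19a* (r 0.958) and *epha2a* (r 0.957). *epha2a*, an ephrin receptor, went from 5.26 TPM in ctrl_96 hpf to 30.7 TPM in lc_24 h, and stood at 11.3 TPM in er_ab and 6.20 TPM in er_nor. By Spearman rho *rybpb* again ranked first, while *epha2a* ranked 31 and *rnf19a* 86. Most like *elovl2* were the fast muscle troponin *tnni2a.1* (r 0.946), *fabp2*, the intestinal fatty acid-binding protein (r 0.929), and the nucleoside transporter *slc28a1* (r 0.914). *fabp2* stood at 545 TPM in ctrl_96 hpf, 829 TPM in ctrl_132 hpf, 443 TPM in lc_12 h, 808 TPM in lc_24 h, 299 TPM in er_ab and 659 TPM in er_nor. It is also 1 of the lipid export markers.

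The genes most like *fads2* were the lens membrane protein genes *lim2.4* (r 0.88) and *lim2.5* (r 0.834) and the myelin protein gene *mpz* (r 0.799), which is also 1 of the glia and myelin markers. *mpz* stood at 11.2 TPM in ctrl_96 hpf, 25.9 TPM in ctrl_132 hpf and 8.70 TPM in lc_12 h. For the main *elovl6* row they were *rab3c* (r 0.953), a GTPase of synaptic vesicles, *NUMA1* (r 0.945) and *sulf2a* (r 0.944), with Spearman ranks of 98 or more. For *scdb* they were *elmod1* (r 0.87), *adh5* (r 0.799) and *klhl43* (r 0.773), and for *elovl5* *api5* (r 0.92), *gabrr2a* (r 0.881) and *ap1b1* (r 0.88). For the second *elovl6* row they were *pcdh9* (r 0.915), *atp1a3a* (r 0.886) and *col8a1a* (r 0.879). These correlations describe 18 points only.

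The genes that supply and use the products of these enzymes were described in 5 lists. Their counts in lc_24 h against ctrl_96 hpf stand beside 9.3% of all genes called higher and 24.3% called lower, or 15.5% and 14.1% with median-of-ratios scaling. Nothing is read about a list from these counts or from those in other comparisons. After 24 h of cold, 0 of 11 genes of fatty acid synthesis were called higher and 4 lower against ctrl_96 hpf, with a median log2 fold change of -0.40 beside -0.23 for all genes tested. The 4 were *slc25a1a*, the mitochondrial citrate carrier, at -1.12 (SE 0.09), *acacb*, an acetyl-CoA carboxylase, at -0.62 (SE 0.06), *acss2*, an acetyl-CoA synthetase, at -0.89 (SE 0.08), and *oxsm* of mitochondrial fatty acid synthesis at -0.66 (SE 0.09). *slc25a1a* went from 13.4 to 5.61 TPM. The calls of *acacb* and *oxsm* were lost with both other scalings of the libraries, at -0.36 and -0.44 with median-of-ratios scaling, which left 2 of 11 lower and a median of -0.14 beside -0.01 for all genes. In lc_12 h against ctrl_108 hpf 0 were called higher and 3 lower, beside 14.1% of all genes lower, and 1 lower with either other scaling.

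Of 14 expressed genes of the elongation cycle and other elongases, 2 were called higher and 4 lower in lc_24 h against ctrl_96 hpf (median -0.27), and 5 and 4 with median-of-ratios scaling. The share called lower was near that of all genes on the deposited scale. *hsd17b12a*, a reductase of the elongation cycle, was higher by 1.14 (SE 0.09), from 21.4 to 48.1 TPM. The elongases *elovl7a*, *elovl4a* and *elovl8b* were lower, with log2 fold changes of -1.67, -1.17 and -0.94. *elovl1a*, an elongase of very long saturated chains, had 33.1 TPM in lc_12 h and 7.13 TPM in ctrl_108 hpf, a log2 fold change of 2.07 (SE 0.14, adjusted p = 2.43e-15). In untreated larvae at 132 hpf 0 of the 14 were called higher and 4 lower against 96 hpf (beside 8.28% of all genes lower), *elovl1a* among them at -1.98 (SE 0.14).

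The desaturases take electrons from cytochrome b5 and its reductases. A list of 10 expressed genes held other desaturases, related enzymes and these donors. In lc_24 h against ctrl_96 hpf 3 of the 10 were called higher and 1 lower (median 0.16), and 4 and 1 with median-of-ratios scaling. *degs2*, a sphingolipid desaturase, was higher by 1.04 (SE 0.07), *cyb5a*, the microsomal cytochrome b5, by 0.72 (SE 0.08) and *fa2h*, a fatty acid hydroxylase, by 0.69 (SE 0.11). *cyb5b*, the mitochondrial cytochrome b5, had a log2 fold change of -1.52 (SE 0.08), from 21.2 to 6.76 TPM. In untreated larvae 5 of the 10 were called lower and 1 higher at 132 hpf against 96 hpf, beside 8.28% and 4.13% of all genes. With either other scaling it was 3 and 1, beside 5.74% and 5.52% of all genes with median-of-ratios scaling. At re_24 h against ctrl_132 hpf 4 were called higher and 0 lower (beside 4.75% of all genes higher), with *cyb5a* at 94.3 against 40.1 TPM (log2 fold change 1.21, SE 0.08), *cyb5r2* at 1.01, *cyb5b* at 0.69 and *cyb5r3* at 0.71.

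Of 21 regulators of lipogenesis, 1 was called higher and 5 lower in lc_24 h against ctrl_96 hpf (median -0.11), a share lower like that of all genes. With median-of-ratios scaling 5 were called higher and 5 lower, and the median was 0.16. *srebf2*, a transcription factor of sterol synthesis, stood at -1.14 (SE 0.07) on the log2 scale, and *mbtps2* and *mbtps1*, the proteases that release such factors, at -1.15 and -0.99. *pparaa*, a nuclear receptor of fatty acid oxidation, stood at -0.96 (SE 0.08). The 1 called higher was *insig1*, a sterol-dependent retention factor of the endoplasmic reticulum (chosen by name after its values were seen). *insig1* stood at 19.5 TPM in ctrl_96 hpf, 41.8 TPM in lc_12 h and 43.4 TPM in lc_24 h, and at 16.4 TPM in re_2 h. Its log2 fold change was 1.11 in lc_24 h against ctrl_96 hpf and -1.29 in re_2 h against lc_12 h. In er_ab against er_nor it was the only called gene of the 21, beside 5.58% of all genes called higher and 4.74% lower. There *insig1* stood at 39.0 against 20.0 TPM (log2 fold change 0.93, SE 0.13, adjusted p = 2.29e-07).

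Acyl activation and incorporation into membrane lipids was represented by 17 expressed genes, of which 3 were called higher and 3 lower in lc_24 h against ctrl_96 hpf (median -0.17), and 4 and 2 with median-of-ratios scaling (median 0.06). The acyl-CoA synthetases *acsl4b* and *acsl5* were higher, at 0.66 and 0.67, and *acsl3b* and the lysophospholipid acyltransferase *mboat2b* lower, at -0.81 and -1.20. The call of *acsl3b* was lost with median-of-ratios scaling, at -0.55. In er_ab against er_nor 3 were called higher and 1 lower, beside 5.58% and 4.74% of all genes. *acsl4b*, which prefers polyunsaturated chains in mammals, stood at 22.3 ± 4.36 TPM in er_ab and 8.90 ± 0.590 TPM in er_nor (SD, n = 3), a log2 fold change of 1.22 (SE 0.09). The acyltransferases *lpcat2* and *mboat2a* were higher, at 0.80 and 0.66, and *acsl1a* lower, at -0.62. In the same comparison, beside the same shares of all genes, 0 of the 14 elongation genes were called higher and 2 lower. The 2 were *elovl4b*, an elongase of very long chains known from the retina, at -1.18 (SE 0.07) and *elovl8a* at -0.65 (SE 0.21). *elovl4b* thus moved with the photoreceptor markers given above, and their part in its value was not tested.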

How the data were processed

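Whole-larva RNA was measured in 54 samples, 3 in each of 18 groups, and samples were matched to table columns by their labels. The deposited TPM were made by the authors, who quantified reads on zebrafish transcripts from Ensembl with Salmon 0.13.1 and summed them to genes with tximport. The authors called genes on counts with another tool, and those calls were not used. The table holds no counts, and the read numbers that the authors reported for their libraries were not used here. For the analysis the deposited TPM were taken as log2(TPM + 1). Means of the 18 groups were estimated with limma 3.58.1 (R 4.3.3), with a mean-variance trend and 36 residual degrees of freedom, for the 25387 genes that reached 1 TPM in all samples of 1 group or more. Genes were called at a fold of 1.5 or more with a p of 0.05 or less after Benjamini-Hochberg adjustment, in 26 comparisons. Ratios within a sample were compared by two-sided exact permutation tests (scipy 1.17.1). The fit was also run on simulated data with normal noise, where changes were added only to genes well above 1 TPM. That run is therefore no check of the fit for genes near 1 TPM, such as *scd*. The members, lists and tests were chosen with earlier results of these data known.

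Named were all members, up to 4 called genes of each list and comparison described with the smallest adjusted p, and the 3 genes with the highest Pearson r of group means to each member (mean of at least 5 TPM, no clone names, 1 ID per symbol). Lists held fatty acid synthesis (11 genes), elongation (14 of 16 used) and other desaturases with related enzymes and electron donors (10 of 11). They also held regulators (21) and acyl activation (17 of 18). Marker lists covered hepatocyte, yolk syncytial layer and enterocyte lipid export, neuron, glia and myelin, photoreceptor, skeletal muscle, epidermis, exocrine pancreas and adipocyte. *pparg* stood in the regulator and the adipocyte list. Alternatives were pseudocounts of 0.1 and 0.5, no filter, a filter at 5 TPM, median-of-ratios scaling, quantile normalization, a fit without the trend, a fit of only the groups compared, the replicate number as a block and each sample left out. Summing both *elovl6* rows, and counting the calls of the 5 lists with both other scalings, were added after the data had been seen.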

Additional observations from a re-analysis of the deposited data

How the results depend on the processing

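No called value changed its sign under any alternative run. Of the values of single members, 10 calls were lost and 9 gained over the alternatives other than left-out samples, and 15 were lost and 12 gained with 1 sample left out. The number of the 7 rows called moved by more than 1.5 times in 4 comparisons. In lc_6 h against ctrl_102 hpf it was 2 in place of 1 with pseudocounts of 0.1 and 0.5. In er_nor against re_24 h it was 1 in place of 2 with no filter, no trend, only the 2 groups compared or both *elovl6* rows summed. In ctrl_108 hpf against ctrl_96 hpf and re_24 h against ctrl_132 hpf it was 1 in place of 2 with median-of-ratios scaling and with quantile normalization. With each sample left out the count ran from 0 to 1 in ctrl_102 hpf, from 1 to 2 in ctrl_108 hpf, lc_6 h against ctrl_102 hpf, re_12 h against lc_12 h and re_24 h against ctrl_132 hpf, from 2 to 3 in lc_24 h against ctrl_96 hpf, lc_24 h against lc_12 h, lc_12 h against ctrl_108 hpf and re_24 h against lc_12 h, from 1 to 3 in er_nor against re_24 h, and from 3 to 4 in er_ab against lc_24 h and re_12 h against lc_24 h. It did not move in the rest. A replicate block changed 0 calls of the members. Samples with the same number deviated together in 0 of 26 comparisons (correlations of deviations from -0.131 to 0.084), so the numbers were not taken as pairs. The counts of all genes called, 52 in number, moved by over 1.5 times in 17 cases with median-of-ratios scaling, 14 with quantile normalization, 11 with only the 2 groups compared and 2 with a pseudocount of 0.1. In lc_24 h against ctrl_96 hpf they were 2361 higher and 6157 lower as reported, 3936 and 3577 with median-of-ratios scaling and 3417 and 3621 with quantile normalization. Of the log2 ratios, 32 moved by more than the spread between samples and 4 changed sign with other pseudocounts.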
